A study of Mus musculus with 3 samples.

Results

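LP CapEC-like cells are a small set of capillary endothelial cells (EC) from mouse Peyer's patches (PP), the lymphoid follicles of the small intestine, named here after the capillaries of the neighbouring lamina propria (LP). They were taken by marker genes from droplet 3′ single-cell RNA sequencing, in which each RNA molecule is counted once as a unique molecular identifier (UMI). Members were chosen by measured UMIs of the genes given here, among cells in which 500 or more genes and 1000 or more UMIs were detected, and in which mitochondrial genes took no more than 10% of UMIs. A cell was taken as blood EC with at least 3 UMIs of Pecam1, Cdh5, Egfl7, Emcn and Flt1 together, fewer UMIs of the fibroblast genes Col1a1, Col1a2, Dcn, Pdgfra and Lum, and at most 1 UMI of the lymphatic genes Mmrn1, Reln and Prox1. It was taken as LP CapEC-like with at least 1 UMI of Gpihbp1, at least 2 UMIs of the 5 gate genes Aqp7, Kcna5, Timp4, Lnx1 and Fmo2 together, and at most 2 UMIs of Apln, Pgf, Trp53i11, Egfl6 and Angpt2, which mark activated or tip-like capillary cells. The rule found 84 cells among 7048 blood EC and 11466 cells that passed the quality filter. They were 60 cells of the control library, 15 of EC-iCOUP_OE replicate 1 and 9 of EC-iCOUP_OE replicate 2.

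The control library came from C57BL/6 mice labelled WT, and both EC-iCOUP_OE libraries came from mice carrying CDH5(PAC)CreERT2 and COUP-TFIIOE/OE. In these mice tamoxifen activates Cre under the endothelial Cdh5 promoter, and Cre switches on COUP-TFII, the nuclear receptor encoded by Nr2f2, in endothelium as a whole and not in capillaries alone. Mice were 6 to 10 weeks old and were taken 14 to 19 days after tamoxifen, with males and females processed together, and the number of mice in each library is not given in the sources used here. The study's methods name littermates without Cre as controls and give days after tamoxifen for control mice. Its results name tamoxifen-treated Cre-negative controls and WT mice, and the labels give the control library only as WT. The members held 140006, 59256 and 22007 UMIs in the control library and in EC-iCOUP_OE replicates 1 and 2, with medians of 1740, 2755 and 2360 UMIs per cell. Levels are in CPM, UMIs scaled to the same total in every library, and 1 UMI of the members stood at 7.14, 16.9 and 45.4 CPM. Intervals given for CPM values cover counting error only.

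The libraries did not match in how their files were made or in the cells they held. EC-iCOUP_OE replicate 1 carried another Cell Ranger version in its header (3.1.0) than the other libraries (3.0.2). Its cell barcodes had 955 different first 7 bases, of which 129 also occurred in the control library, whereas all 455 of EC-iCOUP_OE replicate 2 occurred among the 480 of the control. The control library and replicate 2 shared 12 whole barcodes, none of them in LP CapEC-like cells. Fibroblast-like cells held at least 3 UMIs of the rule's fibroblast genes and at most 1 of its endothelial genes. They were 2507 of the 5473 cells that passed the quality filter in the control, 13 of 4750 in replicate 1 and 12 of 1243 in replicate 2. Values are therefore given for each EC-iCOUP_OE library apart, and the part that library preparation takes in a difference from replicate 1 was not tested.

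Capillaries exchange water, gases, hormones and nutrients with tissue, and differ between organs in how they do so. Those of muscle, heart and fat have a continuous wall and take up fatty acids, for which GPIHBP1 holds lipoprotein lipase at the vessel wall and CD36 carries the released fatty acids. Those of the gut mucosa have pores closed by diaphragms built from PLVAP. In mucosal venules the addressin MAdCAM1, which needs the gut factor NKX2-3, captures lymphocytes, COUP-TFII is known as a factor of vein identity, and Notch signalling with targets such as HEY1 belongs to arteries.

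The gate genes chose the cells, so their levels are a description. Aqp7, a channel for glycerol and water, stood at 379, 270 and 136 CPM in LP CapEC-like cells of the control, EC-iCOUP_OE replicate 1 and EC-iCOUP_OE replicate 2. Kcna5, a voltage-gated potassium channel, stood at 329, 203 and 545 CPM. Timp4, an inhibitor of matrix metalloproteinases, stood at 286, 33.8 and 90.9 CPM, being highest in the control, and the last 2 values rested on 2 UMIs each. Lnx1, a ubiquitin ligase, stood at 114, 33.8 and 318 CPM, and the flavin monooxygenase gene Fmo2 at 107, 219 and 227 CPM. Gpihbp1 stood at 1536, 945 and 1409 CPM. The gate rested on few molecules per cell: 31, 8 and 6 of the members had exactly 2 gate UMIs, and 78, 36 and 11 capillary cells had 1 gate UMI and lay just outside. UMIs of a single gate gene made 16 of 60, 2 of 15 and 2 of 9 members, 2 gate genes were seen in 33, 11 and 5, and 3 or more in 11, 2 and 2.

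**Figure D1:**
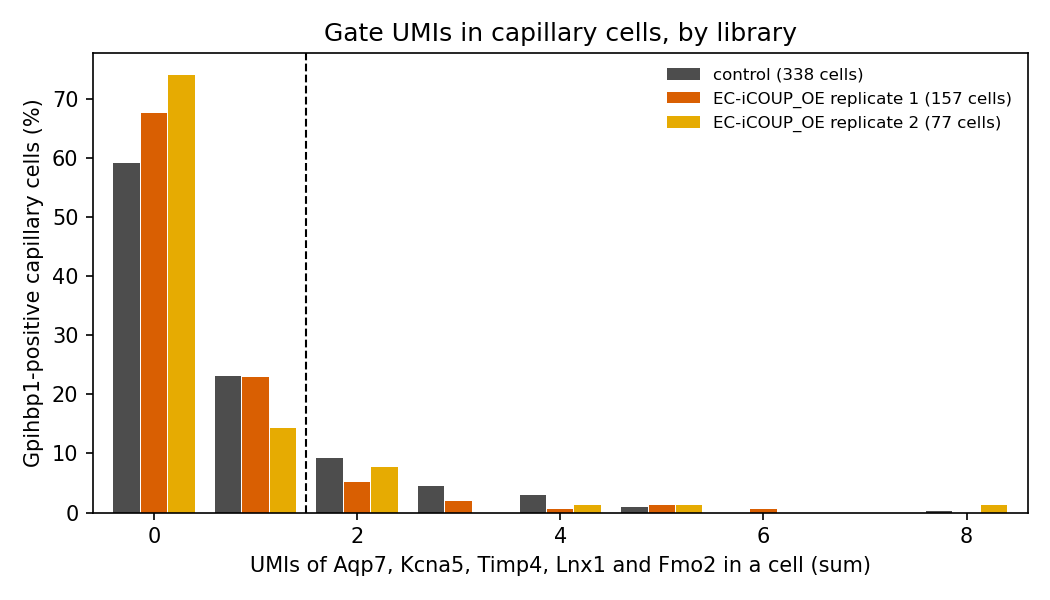
Share of Gpihbp1-positive capillary cells (vertical axis, percent) by the summed UMIs of the 5 gate genes in the cell (horizontal axis), for each library. Cells right of the dashed line are LP CapEC-like, and most of them sit at the lowest value the gate allows, 31 of 60 in the control.

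LP CapEC-like cells made up 2.43% of blood EC in the control library (exact Clopper-Pearson 95% interval 1.86 to 3.12), 0.415% in EC-iCOUP_OE replicate 1 (0.233 to 0.684) and 0.932% in replicate 2 (0.427 to 1.76). The share was lower in both EC-iCOUP_OE libraries, and by this gate the intervals, which cover the counting of cells only, did not overlap that of the control. With each cell thinned to 1000 UMIs the shares were 1.51%, 0.0684% and 0.143%, and without the demand for Gpihbp1 they were 4.05% (3.31 to 4.90), 2.24% (1.78 to 2.78) and 2.28% (1.43 to 3.43). The intervals of replicate 2 and the control overlapped without the demand for Gpihbp1 and also with a gate of 3 UMIs (0.0641 to 0.905 against 0.788 to 1.68). There was 1 control library, so no test was made. Fewer LP CapEC-like cells and less RNA of the gate genes per cell cannot be told apart.

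Of endothelial genes that the rule did not use, Esam, an adhesion molecule of EC junctions, stood at 1036, 861 and 818 CPM in the members and at 6.22, 342 and 215 CPM in fibroblast-like cells, and the receptor gene Tie1 at 164, 169 and 182 CPM against 1.94, 0 and 0 CPM. Both were higher in the members of each library. RNA of other cell types was low in sum, but 7 of 60, 3 of 15 and 0 of 9 members held at least 2 UMIs of another lineage. All 8 genes each of the adipocyte, skeletal and cardiac muscle and myeloid lists were at 0 UMIs in the members. Of the 10 mural genes, those of pericytes and smooth muscle, the members held 4, 30 and 1 UMIs in sum (28.6, 506 and 45.4 CPM) with 4 genes at 0, Acta2 being the most abundant. Of the 5 lymphatic genes they held 115, 6 and 0 UMIs, of which Ccl21a gave 102, 0 and 0 and Flt4, a VEGF receptor gene that blood capillaries can also express, 13, 5 and 0. The fibroblast list gave 3, 3 and 0 UMIs, the epithelial list 2, 1 and 1, the lymphocyte list 2, 0 and 0, and the glial and neuronal list 1, 0 and 0. Where the cells lay in the tissue was not measured. A PP capillary list with Glycam1, Scgb3a1 and Nkx2-3, which the rule did not use, did not set them apart from the other capillary cells compared below (3 genes tested, 0 called, median log2 ratio -0.19). In the control it summed to 9771 CPM in the members and 7729 CPM in those cells. Of the 1368 UMIs behind the first value, 1084 were of Glycam1 in 2 cells, so it does not describe the other control members. In EC-iCOUP_OE replicates 1 and 2 the list summed to 473 and 727 CPM in the members against 512 and 1046 CPM. Plvap, the diaphragm gene of gut mucosal capillaries, was lower in the members than in the other capillary cells. The list of muscle, heart and fat capillaries stood higher, and both results are given below. These values do not speak for a lamina propria place. The name LP CapEC-like is therefore kept as a label, without a claim to their place.

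The members were not all alike. With at least 2 UMIs of Gja5, Gkn3, Bmx, Fbln5, Stmn2 and Sema3g, genes of arteries, 7, 5 and 1 of them also met an arterial rule, and with at least 2 UMIs of Vwf, Selp, Ackr1, Vcam1 and Ch25h, genes of veins, 2, 5 and 0 met a venous rule. Of the venous-rule cells, 2 of 2 in the control and 4 of 5 in EC-iCOUP_OE replicate 1 also met the arterial rule. The 2 in the control bear on several results below. UMIs of Xist but of no Y-linked gene were seen in 34, 3 and 5 members, and the reverse in 2, 3 and 1, so the sex mix of the members also differed between libraries.

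What LP CapEC-like cells carried beyond the gate was asked by comparing them with the other Gpihbp1-positive capillary cells of the same libraries, 278, 142 and 68 cells with at most 1 gate UMI. Of these other capillary cells, 243, 103 and 54 did not meet the venous rule. LP CapEC-like cells had higher levels of Aqp1, Cd36, C1qtnf9, Tspan7 and Meox2 and lower levels of Plvap, Ackr1 and Marcksl1. These were the 5 genes higher (0.155% of 3229 tested) and the 3 genes lower (0.0929%) at a Benjamini-Hochberg adjusted p under 0.05 in edgeR's quasi-likelihood test of summed UMIs, with the library as a block. The gate was drawn up with earlier results of these cells known, so the calls describe which RNAs accompany the gate genes and are no independent support for a cell type.

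Aqp1, the water channel of continuous capillaries, stood at 3036, 894 and 1908 CPM in LP CapEC-like cells of the control and EC-iCOUP_OE replicates 1 and 2, against 1424, 387 and 428 CPM in other capillary cells. It was higher in the members in 3 of 3 libraries, by 1.49 ± 0.58 on the log2 scale (SD, n = 3 libraries; edgeR log2 ratio 1.30, adjusted p = 0.000316). In replicate 2 the 42 UMIs came from 4 of 9 cells, 1 of which held 24, and in replicate 1 the 5 venous-rule cells held 38 of the 53. Cd36, the fatty acid carrier, stood at 1250, 759 and 1681 CPM against 567, 466 and 612 CPM. It too was higher in 3 of 3 libraries, by 1.10 ± 0.38 (SD, n = 3; edgeR log2 ratio 1.03, adjusted p = 0.00362). After thinning to 1000 UMIs a Cd36 UMI was seen in 65.0%, 60.0% and 66.7% of the members and in 46.4%, 38.7% and 36.8% of other capillary cells, and in none of the 14, 22 and 4 lymphocyte-like cells, a type that should lack it, whose unthinned median depths were 1499, 3685 and 4469 UMIs. On summed counts of the thinned cells Cd36 had a log2 ratio of 0.90 and was not called (edgeR adjusted p = 0.350), and of the 5 genes higher Aqp1 alone kept its call there. The log2 ratios of the others stayed near those over all UMIs, at 1.06 against 1.29 for C1qtnf9, 1.38 against 1.25 for Tspan7 and 1.40 against 1.69 for Meox2.

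The promoters of these genes are set beside that of Madcam1, the gene whose levels between genotypes are given below. Each is the 250 bases before the RefSeq start, 5′ to 3′ on the gene's strand in GRCm38.p6, with GGTCA, the core letters of elements that COUP-TFII binds, or its reverse complement TGACC in capitals. The letters and the window were settled after matches had been seen. The coordinates are chr10:79664309-79664558 (plus strand) for Madcam1, chr6:55336049-55336298 (plus strand) for Aqp1 and chr5:17835897-17836146 (minus strand) for Cd36.
Madcam1: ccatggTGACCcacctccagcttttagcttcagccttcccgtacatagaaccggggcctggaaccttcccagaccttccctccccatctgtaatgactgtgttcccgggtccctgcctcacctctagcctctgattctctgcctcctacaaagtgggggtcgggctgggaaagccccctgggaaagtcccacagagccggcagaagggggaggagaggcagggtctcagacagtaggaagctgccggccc
Aqp1: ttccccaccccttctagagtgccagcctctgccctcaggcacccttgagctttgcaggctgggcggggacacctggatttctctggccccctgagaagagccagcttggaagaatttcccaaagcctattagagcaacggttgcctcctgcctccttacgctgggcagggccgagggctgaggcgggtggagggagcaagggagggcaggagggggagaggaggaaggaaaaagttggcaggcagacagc
Cd36: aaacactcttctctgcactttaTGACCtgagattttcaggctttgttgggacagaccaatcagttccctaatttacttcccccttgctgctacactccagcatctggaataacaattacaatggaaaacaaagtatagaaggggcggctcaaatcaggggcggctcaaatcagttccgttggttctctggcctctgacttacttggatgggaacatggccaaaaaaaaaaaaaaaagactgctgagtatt
Madcam1 and Cd36 held 1 match each and Aqp1 held 0, while 35.2% of the 32851 promoters in the table held at least 1. A match is a run of letters and not a site in use. The related letters GGTCG, which Madcam1 also holds, were not marked. The paper describes an element of the Madcam1 promoter in which COUP-TFII sites lie beside a site for the gut NKX factor. Its longer promoter construct held this element, and its shorter construct lacked it. Sequence further upstream was not analysed here and the element was not searched for, so the match counts do not describe it.

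C1qtnf9, which encodes a secreted relative of adiponectin, stood at 579, 354 and 499.8 CPM in LP CapEC-like cells and at 246, 141 and 149 CPM in other capillary cells (1.44 ± 0.27 on the log2 scale, SD, n = 3; edgeR adjusted p = 0.00362). The tetraspanin gene Tspan7 stood at 450.0, 118 and 273 CPM against 162, 80.7 and 119 CPM (1.07 ± 0.47, SD, n = 3; edgeR adjusted p = 0.0102). Both were higher in the members of each library. Meox2, a homeobox factor that in heart and muscle endothelium drives fatty acid uptake together with TCF15, stood at 236, 186 and 0 CPM against 55.5, 71.4 and 29.7 CPM (edgeR log2 ratio 1.69, adjusted p = 0.0314). It was thus higher in 2 of 3 libraries, and its 0 UMIs in the 9 members of replicate 2 are under a floor of 136 CPM (3 UMIs). Tcf15 stood at 343, 523 and 499.8 CPM against 248, 313 and 202 CPM, higher in 3 of 3 libraries without passing the test (edgeR adjusted p = 0.390).

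Plvap, the diaphragm gene, was lower in LP CapEC-like cells but still plentiful, at 1429, 1856 and 1727 CPM against 2698, 3238 and 3572 CPM. The ratio was close to the same in all 3 libraries, at -0.92 ± 0.12 on the log2 scale (SD, n = 3; edgeR adjusted p = 0.0022). Marcksl1, which encodes an actin-regulating substrate of protein kinase C, stood at 28.6, 50.6 and 90.9 CPM against 92.0, 194 and 267 CPM, on 4, 3 and 2 UMIs in the members (-1.73 ± 0.19, SD, n = 3; edgeR adjusted p = 0.0376). Ackr1, the chemokine receptor of venules, had 9, 0 and 0 UMIs in the members and stood at 283, 23.05 and 0 CPM in other capillary cells, so its call (edgeR log2 ratio -2.20, adjusted p = 0.0118) rested on the control library. Nkx2-3, the gut endothelial factor, stood at 264, 236 and 227 CPM against 360, 295 and 363 CPM (edgeR log2 ratio -0.48, adjusted p = 0.777).

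**Figure D2:**
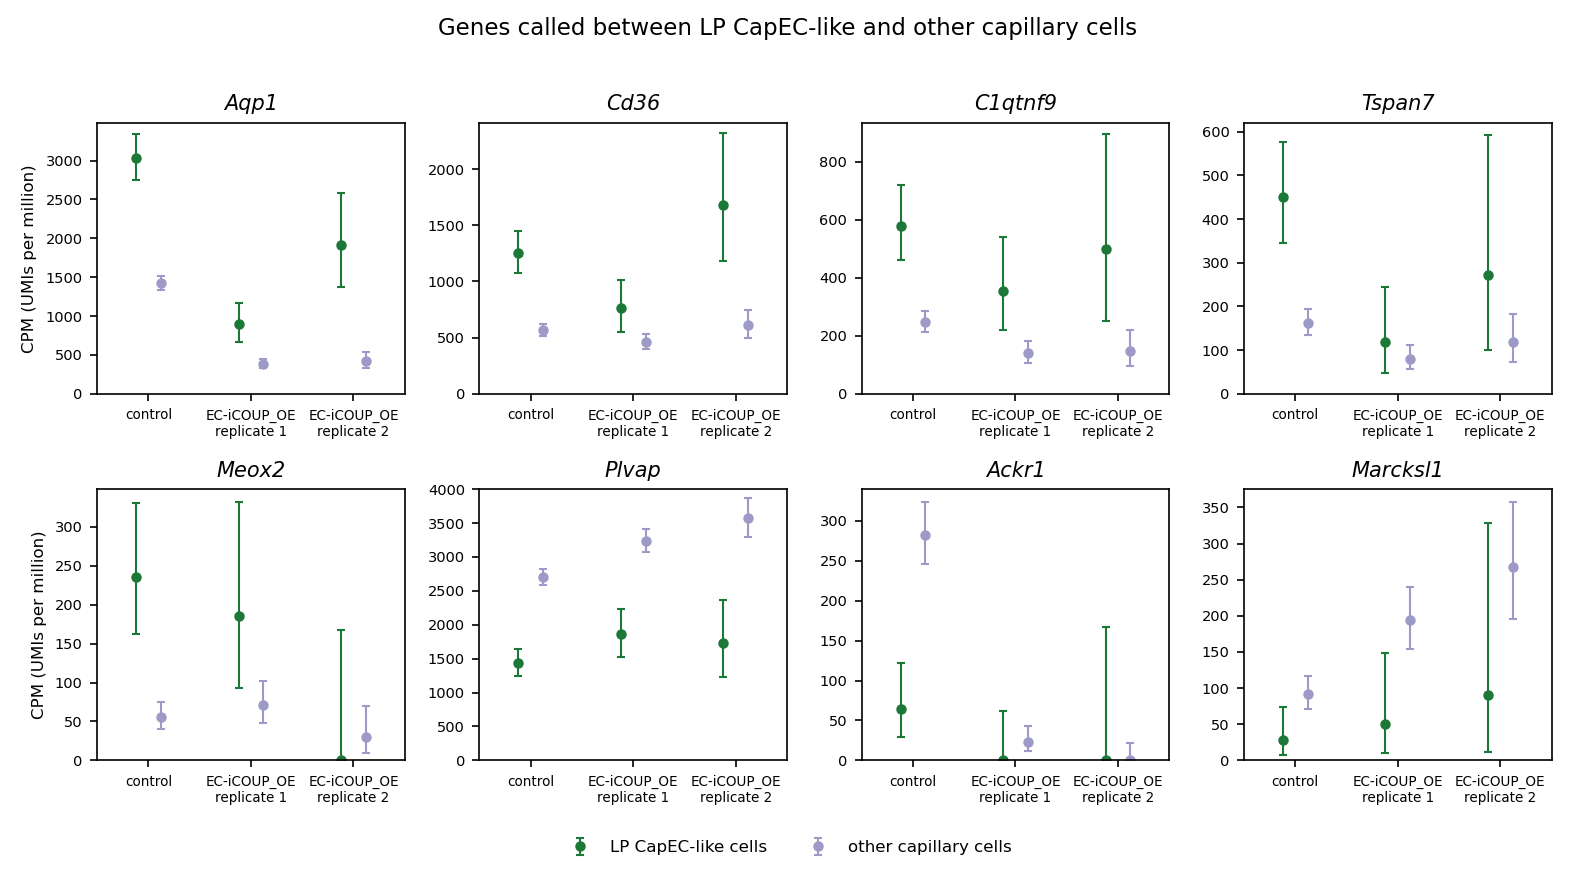
Level of each called gene (vertical axis, CPM) in LP CapEC-like cells (green) and other capillary cells (lilac) of each library (horizontal axis), with exact 95% counting intervals. Plvap is lower in the members in all 3 libraries, Aqp1 and Cd36 are higher in all 3, and Meox2 is higher in 2.

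The calls depended on how the 6 sums were fitted. Without the control library no gene was called (109 at an unadjusted p under 0.05), without EC-iCOUP_OE replicate 1 there were 15 higher and 8 lower, and without replicate 2 there were 15 and 12, while DESeq2 called 3 and 1. Without venous-rule cells the 5 genes higher kept their calls, and of the 3 genes lower 1 did (Plvap). Marcksl1 had a log2 ratio of -1.68 against -1.79 over all members and lost its call (edgeR adjusted p = 0.275). Ackr1, a gene of the venous rule, had no value there. Over all alternatives, calls were lost in 11 of 16 for Marcksl1, 8 of 16 for Meox2 and 6 of 17 for Cd36. With a gate of 3 UMIs Plvap had a log2 ratio of -1.39 (edgeR adjusted p = 0.279) and was not called. Cd36 had 1.08 there (edgeR adjusted p = 0.647) and was not called either. None of the 8 genes changed direction under any alternative that gave it a value.

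Of the lists given here, that of the continuous capillaries of muscle, heart and fat had the highest median. Of its 11 tested genes, 3 rose (Aqp1, Cd36 and Meox2) and 0 fell, all 11 had a ratio above 0, and the median log2 ratio was 0.55, against -0.02 over all 3229 genes tested. Fabp4, a carrier of fatty acids in the cell, stood at 11557, 15458 and 14314 CPM in the members against 7131, 12845 and 7476 CPM (edgeR adjusted p = 0.0957). Its relative Fabp5 stood at 893, 1249 and 1045 CPM against 536, 724 and 541 CPM (edgeR adjusted p = 0.0623). Both were higher in 3 of 3 libraries but did not pass the test. Lipid handling, a list that shares Cd36, Fabp4, Fabp5 and other genes with the former, had 1 gene of 11 higher, 0 lower and a median of 0.51.

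Of the 11 tested genes of the fenestrated capillary list 0 rose and 1 fell (Plvap), with a median of -0.27. The VEGF receptor Kdr stood at 436, 624 and 499.8 CPM in the members against 507, 756 and 547 CPM (edgeR adjusted p = 0.941), and the lipid phosphatase Plpp3 at 957, 557 and 636 CPM against 1021, 532 and 499 CPM (edgeR adjusted p = 0.996). Of 33 endothelial transcription factors 1 rose (Meox2), 0 fell and the median was 0.12. The venous list had 0 of 6 higher and 1 lower (Ackr1, median -0.41), and the addressin and leukocyte adhesion list 0 of 11 higher and 1 lower (also Ackr1, median 0.03). The barrier list had 0 of 17 higher and 1 lower (Plvap, median 0.24). The secreted and IGF binding protein list had 1 of 11 higher (C1qtnf9) and 0 lower (median -0.10). Transport genes, those with Slc, Slco, Abc or Aqp symbols, had 1 of 32 higher (Aqp1) and 0 lower (median -0.05).

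No gene passed the test, with edgeR calls of 0 in each direction, in the Notch (8 tested, median 0.02), BMP and TGF-beta (10, 0.16), Wnt (3, 0.22), VEGF (6, -0.03), angiopoietin, Tie and apelin (4, 0.12), arterial (12, 0.02), basement membrane (13, -0.08), MHC (13, -0.24), interferon (22, -0.13), immediate early (22, -0.15), coagulation and flow (14, 0.01), capillary receptor and channel (15, 0.07), retinoid (5, -0.03), PP capillary (3, -0.19) or dividing (4, -0.29) lists. Among them Sox17, an arterial and Notch-linked factor, stood at 736, 287 and 499.8 CPM in the members against 375, 226 and 440 CPM (edgeR adjusted p = 0.450). Klf2, induced by flow, stood at 2386, 1013 and 2181 CPM against 1990, 1127 and 2068 CPM (edgeR adjusted p = 0.992).

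Against all other blood EC (2409, 3598 and 957 cells), a comparison that the demand for Gpihbp1 already weights toward capillaries, 66 genes were higher (2.09% of 3159 tested) and 64 lower (2.03%) in the same test. Of the 11 tested genes of the muscle, heart and fat list 9 rose and 0 fell, with a median of 1.76 against -0.02 over all genes tested. Tcf15, the partner of MEOX2, stood at 343, 523 and 499.8 CPM in LP CapEC-like cells against 91.3, 85.8 and 120 CPM (edgeR log2 ratio 2.05, adjusted p = 0.000384). Car4, a carbonic anhydrase on the capillary surface, stood at 314, 33.8 and 409 CPM against 44.5, 11 and 93.8 CPM (edgeR log2 ratio 2.35, adjusted p = 0.000918). Both were higher in 3 of 3 libraries. Of 12 tested basement membrane genes 4 rose (Col4a1, Col4a2, Sparc and Sparcl1), 0 fell and the median was 0.62. Cav1, the coat protein of caveolae, stood at 1707, 1114 and 1863 CPM in the members against 673, 524 and 645 CPM (edgeR log2 ratio 1.16, adjusted p = 0.00191). Cxcl12, a chemokine of arterial endothelium, stood at 1578, 861 and 409 CPM against 450.3, 123 and 326 CPM (edgeR log2 ratio 1.73, adjusted p = 0.00871). Igfbp3, which binds insulin-like growth factors, stood at 536, 962 and 954 CPM against 229, 171 and 438 CPM (edgeR log2 ratio 1.499, adjusted p = 0.00743). All 3 were higher in the members of each library. Col4a1, a chain of type IV collagen, stood at 821, 962 and 1181 CPM against 285, 415 and 528 CPM (edgeR adjusted p = 0.00275).

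Of 12 tested addressin and adhesion genes 0 rose and 7 fell (Ackr1, Ccl21a, Cxcl10, Glycam1, Icam1, Madcam1 and Selp; median -1.60), and of 8 venous genes 0 rose and 5 fell (median -1.42). Icam1, a ligand of leukocyte integrins, stood at 107, 135 and 182 CPM in LP CapEC-like cells against 291, 439 and 704 CPM (edgeR log2 ratio -1.77, adjusted p = 0.00191). Of the 11 fenestrated capillary genes 2 rose (Cd300lg and Esm1) and 1 fell (Plvap), with a median of 0.22, and Plvap stood at 2729, 4222 and 4159 CPM in the comparator (edgeR log2 ratio -1.26, adjusted p = 0.00104). Nkx2-3 stood at 482, 427 and 418 CPM there and was lower in the members (edgeR log2 ratio -0.9997, adjusted p = 0.0241). Madcam1 stood at 6291, 3451 and 2957 CPM in all other blood EC, above the members in 3 of 3 libraries (edgeR log2 ratio -2.04, adjusted p = 7.07e-05). Of 22 immediate early genes 0 rose and 7 fell (median -0.66). Fos, the first of them by level, stood at 1814, 1266 and 3272 CPM against 2236, 2818 and 4927 CPM (edgeR adjusted p = 0.0241). Such genes respond to tissue dissociation, and the part that handling took in the difference was not tested.

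**Figure D3:**
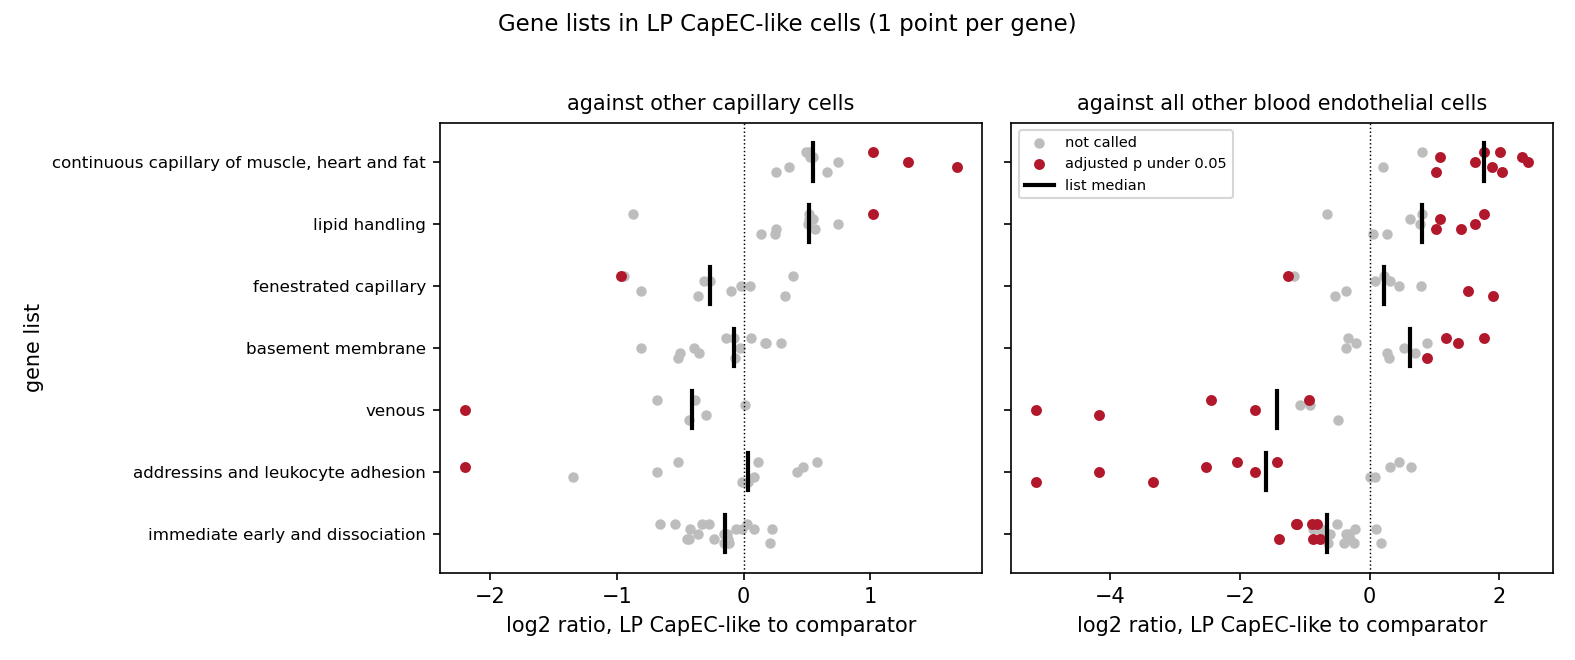
Log2 ratio of LP CapEC-like cells (horizontal axis, from the edgeR fit) for each tested gene of 7 lists (vertical axis), against other capillary cells (left) and all other blood EC (right). Red points have an adjusted p under 0.05 and black bars are list medians, which for the muscle, heart and fat list stand at 0.55 and 1.76.

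How LP CapEC-like cells of EC-iCOUP_OE mice differed from those of the control was described without a test, since there was 1 control library. A gene was called where both EC-iCOUP_OE libraries differed from the control at least 2-fold the same way and both exact 95% counting intervals left out no change. By this rule Nr2f2, Thbs1, Cd300lg and Cxcl10 were among 30 genes higher (0.909% of 3302 tested), and Clu, Glycam1, Ccl21a and Scgb3a1 were among 18 genes lower (0.545%). Of the 30 genes higher, 18 were also called higher in other capillary cells and 11 in fibroblast-like cells. Of the 18 genes lower, 8 and 3 were also called lower there. The share of all genes called in those classes is not given here, so these counts do not show whether the overlap exceeds it. Scaling by TMM in place of library size moved the median log2 ratio of all genes by -0.05 in replicate 1 and by -0.27 in replicate 2, and the split became 24 higher and 22 lower. Ratios below are on the library-size scale.

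Nr2f2, the overexpressed gene, checked the labels. It stood at 42.9 CPM in LP CapEC-like cells of the control (6 UMIs in 4 of 60 cells), at 979 CPM in EC-iCOUP_OE replicate 1 (58 UMIs in 8 of 15 cells) and at 863 CPM in replicate 2 (19 UMIs in 5 of 9 cells). Both EC-iCOUP_OE libraries stood far above the control, with log2 ratios of 4.51 (interval 3.30 to 6.02) and 4.33 (2.95 to 5.95). In replicate 1 the 5 venous-rule cells held 29 of its 58 UMIs. In other capillary cells Nr2f2 stood at 64.9, 1320 and 862 CPM. At 1000 UMIs a cell, an Nr2f2 UMI was seen in 3.33%, 33.3% and 44.4% of the members, and in 0 of 14, 13.6% of 22 and 0 of 4 lymphocyte-like cells, of which the 0 of 14 allows a share of up to 21.4%. Before thinning these shares were 6.67%, 53.3% and 55.6% of the members and 0 of 14, 40.9% of 22 and 1 of 4 lymphocyte-like cells. In fibroblast-like cells (2507, 13 and 12) Nr2f2 stood at 55.0, 503 and 359 CPM, and at 1000 UMIs the share with an Nr2f2 UMI was 4.71%, 38.5% and 58.3%, above that of the members in each library. Unthinned it was 13.4%, 76.9% and 66.7%, and the part of free RNA in these values was not tested.

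For Nkx2-3 the members gave log2 ratios to the control of -0.16 (interval -1.16 to 0.76) and -0.22 (-1.92 to 1.13). Hey1, the Notch target, stood at 199.99, 33.8 and 45.4 CPM on 28, 2 and 1 UMIs, lower in both EC-iCOUP_OE libraries (log2 ratios -2.57, interval -5.68 to -0.58, and -2.14, interval -7.49 to 0.46), and the second interval included no change, so it was not called. Its mean log2 ratio with 0.5 UMI added was -1.92 over all members and -0.80 with thinned cells, and Hey1 was called lower without the minimum for Gpihbp1 (-2.25) and without replicate 2 (-2.27). In other capillary cells Hey1 stood at 158, 94.5 and 77.3 CPM. Of 9 tested Notch genes 0 were called higher and 0 lower, and the median of the mean log2 ratio with 0.5 UMI added was -0.58 against 0.16 over all genes tested.

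Madcam1, the mucosal addressin, stood at 1393, 1013 and 999.7 CPM in LP CapEC-like cells of the control and EC-iCOUP_OE replicates 1 and 2. Over all members it was thus somewhat lower in both EC-iCOUP_OE libraries (log2 ratios -0.46, interval -0.90 to -0.04, and -0.48, interval -1.19 to 0.16). The 2 venous-rule cells of the control held 187 of its 195 UMIs, 110 in one and 77 in the other. In EC-iCOUP_OE replicate 1 the 5 venous-rule cells held 51 of its 60 Madcam1 UMIs. With venous-rule cells left out of every library, an alternative added after the values were seen, Madcam1 stood at 65.9, 336 and 999.7 CPM on 8, 9 and 22 UMIs. It was then called higher, with log2 ratios of 2.35 (interval 0.81 to 3.93) and 3.92 (2.70 to 5.30). In replicate 2 a pair of cells held 12 and 7 of the 22 UMIs. The mean log2 ratio with 0.5 UMI added was -0.45 over all members, -2.57 with a gate of 3 UMIs and 1.09 with thinned cells. A Madcam1 UMI was seen in 9 of 60, 7 of 15 and 4 of 9 members, and after thinning in 6.67% (exact 95% interval 1.85 to 16.2), 40.0% (16.3 to 67.7) and 33.3% (7.49 to 70.1). The share was higher in both EC-iCOUP_OE libraries, although the intervals of replicate 2 and the control overlapped, and in other capillary cells it was 12.9%, 43.0% and 42.6%. In lymphocyte-like cells, which should lack Madcam1, it was 14.3% of 14 (1.78 to 42.8), 0 of 22 and 0 of 4, and in fibroblast-like cells 3.59% of 2507 (2.896 to 4.39), 0 of 13 and 0 of 12. The control share of the members was not above the background at this depth, since its interval held both control values.

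Some other genes of lymphocyte capture and venous identity were sparse in LP CapEC-like cells, whereas Cd34 stood at 700, 979 and 772 CPM. St6gal1, which encodes a sialyltransferase, had 1, 0 and 0 UMIs, Selp 1, 0 and 0, Vcam1 3, 4 and 0, Ackr1 9, 0 and 0, and Nr2f1, a relative of Nr2f2, 0 in all libraries, so that no ratio is given for them. Ccl21a, a chemokine of lymphatic vessels and high endothelial venules (HEV), had 102, 0 and 0 UMIs, at least 14.4-fold and 5.34-fold lower in EC-iCOUP_OE replicates 1 and 2 against a floor of 3 UMIs per library. It stood at 1323, 459 and 59.4 CPM in other capillary cells and at 13107, 926 and 71.8 CPM in fibroblast-like cells, lower in the EC-iCOUP_OE libraries there too. The 2 venous-rule cells of the control held 92 of the 102.

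The same 2 cells carried most UMIs of other genes called lower. They held 1084 of 1111 UMIs of Glycam1, an HEV glycoprotein with 0 UMIs in both EC-iCOUP_OE libraries (at least 157-fold and 58.2-fold lower). A Glycam1 UMI was seen in 26.7% of control members, and also in 28.6% of lymphocyte-like and 27.7% of fibroblast-like control cells (at 1000 UMIs 21.7%, 14.3% and 11.7%), and in 0 cells of these classes in the EC-iCOUP_OE libraries, so the difference was not limited to the members. They held 66 of 70 UMIs of Ubd, 71 of 80 of Serpina1b, 154 of 163 of Lrg1 and 223 of 273 of Clu, which encodes the secreted chaperone clusterin. Clu stood at 1950, 50.6 and 45.4 CPM in the members, 1468, 228 and 285 CPM in other capillary cells and 2505, 20.1 and 23.9 CPM in fibroblast-like cells, lower in both EC-iCOUP_OE libraries in each class. Without venous-rule cells 22 genes were called higher and 15 lower, of which 18 and 11 were among the 30 and the 18. Clu was still called lower (log2 ratios -2.46 and -3.18), but not once arterial-rule cells were left out too, when its mean log2 ratio with 0.5 UMI added went from -4.94 to -0.83. Without venous-rule cells Glycam1 was not called, although its 27 remaining control UMIs (222 CPM) stood against 0 and 0 (mean log2 ratio -3.46 with 0.5 UMI added), and Ccl21a, Ubd, Serpina1b and Lrg1 fell under the 50 CPM minimum. Scgb3a1, a secretoglobin gene, stood at 1414, 219 and 499.8 CPM in the members (log2 ratios -2.69 and -1.50) and at 1576, 196 and 642 CPM in other capillary cells. Enpp2, which encodes autotaxin, stood at 393, 101 and 0 CPM and lost its call without venous-rule cells (mean log2 ratio -1.92 against -2.99). Fcgrt, the neonatal Fc receptor, stood at 336, 84.4 and 45.4 CPM on 47, 5 and 1 UMIs, and at 173, 159 and 160 CPM in other capillary cells. Without the minimum for Gpihbp1 it was not called, and its mean log2 ratio with 0.5 UMI added went from -2.09 to -0.50. Nop53, a ribosome assembly factor, stood at 450.0, 118 and 136 CPM.

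Of the genes called higher, Thbs1, which encodes the antiangiogenic matrix protein thrombospondin 1, stood at 49.998, 371 and 954 CPM in LP CapEC-like cells (log2 ratios 2.89, interval 1.62 to 4.36, and 4.25, interval 2.97 to 5.73). Both EC-iCOUP_OE libraries stood above the control, and in other capillary cells Thbs1 stood at 98.7, 399 and 624 CPM. Cd300lg, a receptor of capillary endothelium that binds lymphocytes, stood at 99.996, 456 and 454 CPM (log2 ratios 2.19 and 2.18, intervals 1.21 to 3.23 and 0.85 to 3.46). In other capillary cells it stood at 141, 258 and 244 CPM. Cxcl10, an interferon-induced chemokine, stood at 28.6, 169 and 1181 CPM, but in 1, 2 and 3 cells. In replicate 1 a single cell held 9 of 10 UMIs, and in replicate 2 a pair of cells held 15 and 10 of 26. Bst2, another interferon-induced gene, stood at 264, 979 and 727 CPM. H2-Q4, an MHC class I gene whose reads may be split among its close relatives, stood at 28.6, 236 and 227 CPM. These last 2 were higher in both EC-iCOUP_OE libraries, and in other capillary cells too, at 268, 908 and 594 CPM for Bst2 and 48.7, 173 and 220 CPM for H2-Q4.

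Myl9, a myosin light chain of contractile cells, stood at 7.14, 236 and 227 CPM, on 1, 14 and 5 UMIs, and the summed mural genes moved with it in replicate 1 (28.6, 506 and 45.4 CPM), where 2 members had at least 2 mural UMIs. With members that held at least 2 UMIs of another lineage left out, Myl9 had a mean log2 ratio (0.5 UMI added) of 4.49 against 4.53 over all members, but was no longer called. Myl9 was also called higher in other capillary cells and in fibroblast-like cells. The remaining genes of the first 10 by size were Ftl1-ps1, AY036118, Rpl29, Mdp1, Alyref and Prcp. Ftl1-ps1, a pseudogene whose reads may be split with its parent gene, stood at 49.998, 945 and 863 CPM, the rRNA-derived AY036118 at 49.998, 473 and 999.7 CPM, and Rpl29, a ribosomal protein gene, at 164, 1063 and 1363 CPM. These 3 were also higher in the fibroblast-like cells (2507, 13 and 12 cells), at 45.3, 684 and 1363 CPM for Ftl1-ps1, 59.0, 765 and 669.7 CPM for AY036118 and 91.7, 725 and 1507 CPM for Rpl29. The part of the libraries themselves in these differences was not tested. Alyref, an RNA export factor, rested on 2, 9 and 4 UMIs, the phosphatase gene Mdp1 on 2, 10 and 4, and the peptidase gene Prcp on 4, 15 and 4.

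Without arterial-rule and venous-rule cells other genes also lost their calls with mean log2 ratios (0.5 UMI added) that stayed over 2-fold, among them Myl9 at 3.11 and Prcp at 1.75, Glycam1 at -3.56 and Enpp2 at -1.83. The ratios were 3.15 against 3.41 for Mdp1, 3.72 against 3.34 for Alyref, 2.32 against 2.94 for H2-Q4 and -1.46 against -1.68 for Nop53. Without venous-rule cells, Nr2f2, Thbs1 and Cd300lg kept their calls. Cxcl10 lost its call, standing at 0, 37.3 and 1181 CPM on 0, 1 and 26 UMIs outside venous-rule cells. Myl9 (mean log2 ratio 3.26 against 4.53) and Prcp (1.90 against 2.85) also lost theirs, with ratios that stayed over 2-fold. Further genes called higher included Anxa2, Ubb, Cd9, Cebpd, Csrp2, Selenow, Emc6, Slco2a1, Rpl35, Myadm, Mcam, Pcnp, Tmem159, Erh, Pgls and Gm4951. Mcam, an adhesion molecule of endothelium and mural cells, stood at 64.3, 287 and 409 CPM. Anxa2, which binds plasminogen activator, stood at 464, 945 and 1227 CPM. Neither was called without venous-rule cells, a setting whose ratios for these genes are not given here. Further genes called lower included Grrp1, Tsc22d3, Gja4, Slfn5, Eef2, Ifi203 and Eif4a2.

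The muscle, heart and fat list had 0 of 11 genes higher and 0 lower between genotypes (median 0.02). Within it, Aqp1 stood lower in both EC-iCOUP_OE libraries (log2 ratios -1.76 and -0.67) and Cd36 lower in one and higher in the other (-0.72 and 0.43). The arterial list had 0 of 11 higher and 2 lower (Gja4 and Clu, median -1.37), of which Gja4, a gap junction gene of arteries, stood at 279, 118 and 0 CPM. The venous list had 1 of 5 higher (Nr2f2) and 1 lower (Lrg1, median 0.63), the addressin list 1 of 10 higher (Cxcl10) and 2 lower (Ccl21a and Glycam1, median -0.18), and the interferon list 2 of 22 higher (Cxcl10 and Bst2) and 0 lower (median 0.11). The fenestrated list had 1 of 10 higher (Cd300lg) and 0 lower (median 0.36), and Plvap had log2 ratios of 0.38 and 0.27. The PP capillary list had 0 of 3 higher and 2 lower (Scgb3a1 and Glycam1, median -2.04). All medians stand beside 0.16 over the 3302 genes tested. Whether the difference between genotypes differed between LP CapEC-like and other capillary cells was asked by an interaction in edgeR with 1 residual degree of freedom, and 0 genes passed (91 at an unadjusted p under 0.05).

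**Figure D4:**
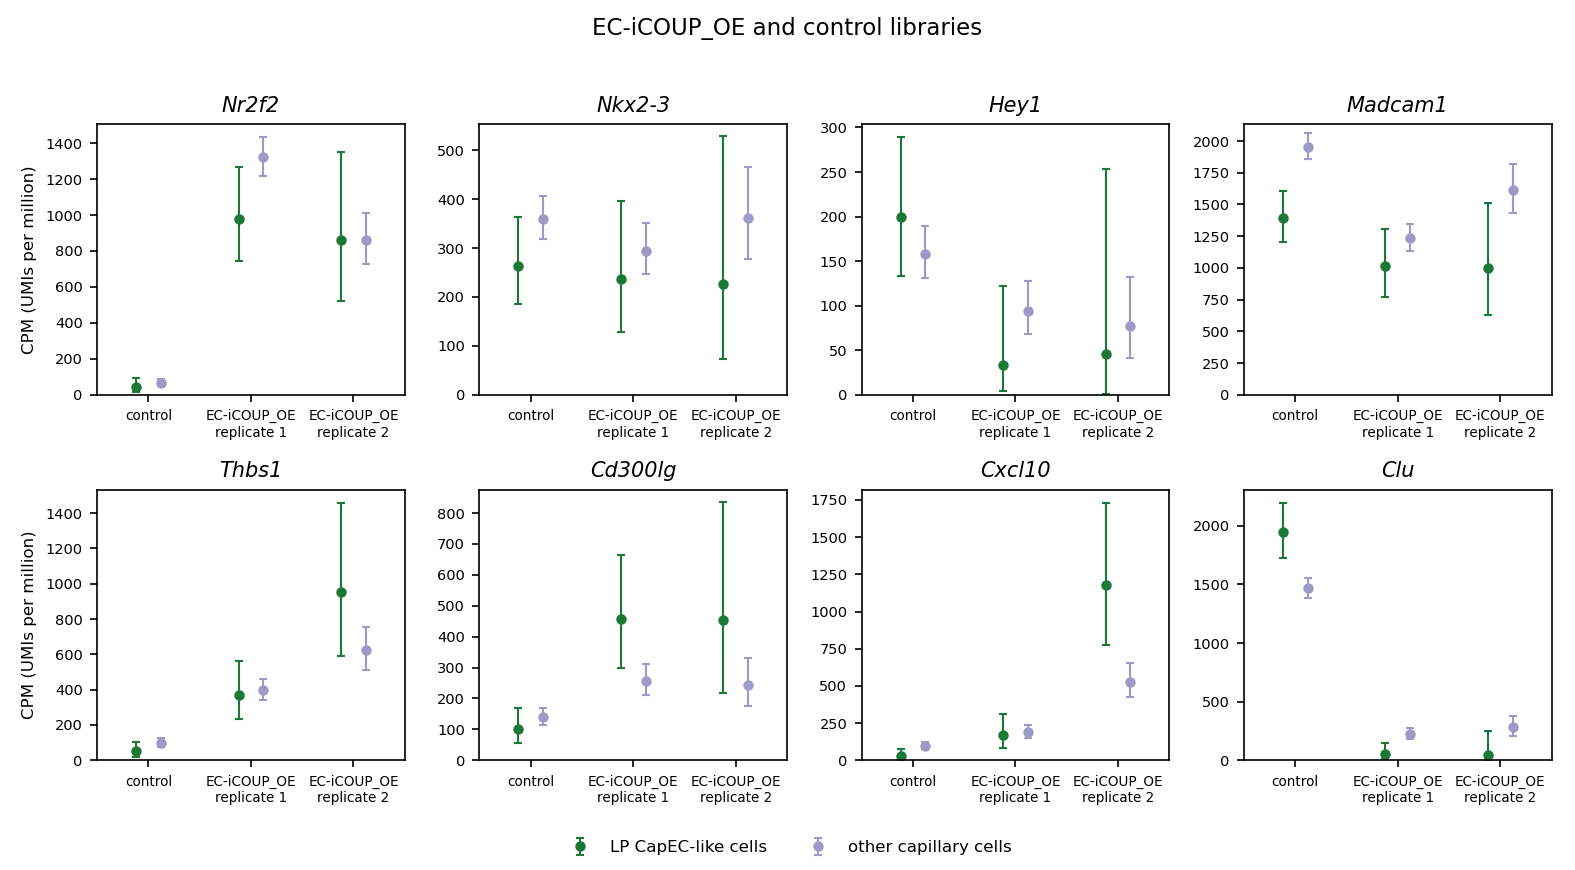
Level of 8 genes (vertical axis, CPM) in LP CapEC-like cells (green) and other capillary cells (lilac) of the control and EC-iCOUP_OE libraries (horizontal axis), with exact 95% counting intervals. Nr2f2, Thbs1 and Cd300lg are higher in the members of both EC-iCOUP_OE libraries, Clu is lower, and most Madcam1 and Clu UMIs of the control members come from 2 cells.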

How the data were processed

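The deposited matrices hold UMI counts per gene and cell barcode, which the authors made with Cell Ranger against mm10 (version 3.0.2 per the labels and 2 file headers, 3.1.0 per the header of EC-iCOUP_OE replicate 1). The labels name both v2 and v3 chemistry. CreERT2 and TdTomato, listed in 2 of the files, had 0 UMIs. Members, lists and tests were chosen with earlier results of these data known. UMIs were summed per library and cell class with scipy 1.17.1, pandas 2.3.3 and numpy 2.4.6 under Python 3.11.15, and fitted with edgeR 4.0.16 in R 4.3.3 (TMM, mean of at least 50 CPM, library as block) or DESeq2 1.42.0. Genes of the cell rule and sex-linked genes were left out of calls. Cells are not replicates. The libraries are the samples, and their spread may be technical. No doublet caller was run, and cells with at least 2 UMIs of another lineage were left out in an alternative. Named genes were up to 15 per direction against other capillary cells with the same sign in all libraries, leaving out transport, barrier, ribosomal and mitochondrial genes, up to 10 per direction between genotypes, up to 4 per list, and the genes named in the paper. Called genes outside this rule (Meox2, Tcf15, Car4 and others) were named after their values were seen. Both analyses were tested on simulated data, on which decreases were recovered less often than increases, and on which the test against other capillary cells also called some unchanged genes. The simulation between genotypes held counting noise alone, without UMIs bunched in a few cells, so it does not show how often such bunching gives a call. Sequences are from RefSeq (GRCm38.p6), and all 3 genes asked for matched. Some called genes are not reported here.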

Additional observations from a re-analysis of the deposited data

Results flagged for a closer look

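For 10 genes named above, LP CapEC-like cells stood on one side of other capillary cells in the control library and on the other side in both EC-iCOUP_OE libraries. Most of these genes were named because their levels in the same members differed between genotypes, a choice that favours such a change of side. Some of the ratios lie near 0, and the share of all tested genes that changed side is not given here. Ratios are log2 ratios of CPM with 0.5 UMI added. The edgeR interaction called none of them, but with 1 control library and 1 residual degree of freedom it cannot decide the question.

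Clu stood at 0.41 in the control and at -1.96 and -2.08 in EC-iCOUP_OE replicates 1 and 2. Of its 273 UMIs in control members 223 lay in 2 venous-rule cells. The other control members stood at 412 CPM, against 1468 CPM in other capillary cells with venous-rule cells kept. Fcgrt stood at 0.96 in the control and at -0.79 and -1.26 in EC-iCOUP_OE replicates 1 and 2. H2-Q4 stood at -0.62 in the control and at 0.49 and 0.17 in EC-iCOUP_OE replicates 1 and 2. Hey1 stood at 0.36 in the control and at -1.18 and -0.24 in EC-iCOUP_OE replicates 1 and 2. Lrg1 stood at 0.0183 in the control and at -0.69 and -4.26 in EC-iCOUP_OE replicates 1 and 2. The same 2 cells held 154 of its 163 control UMIs, and the other control members stood at 74.1 CPM. Mdp1 stood at -1.96 in the control and at 1.16 and 1.35 in EC-iCOUP_OE replicates 1 and 2. Myl9 stood at -2.20 in the control and at 1.04 and 0.37 in EC-iCOUP_OE replicates 1 and 2. Nop53 stood at 0.19 in the control and at -0.21 and -1.20 in EC-iCOUP_OE replicates 1 and 2. Rpl29 stood at 0.19 in the control and at -0.14 and -0.06 in EC-iCOUP_OE replicates 1 and 2. Serpina1b stood at -0.70 in the control and at 1.49 and 1.35 in EC-iCOUP_OE replicates 1 and 2, where the members held 2 and 0 UMIs and the sign in replicate 2 comes from the added 0.5 UMI.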

How the results depend on the processing

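The results rest on 84 cells, and in the 9 members of EC-iCOUP_OE replicate 2 a gene at 0 may stand at up to 136 CPM. No paired analysis of genotypes was possible, because the title of the control library (WT) carries no replicate number and the groups share fewer than 2 numbers. In the comparison with other capillary cells the library was a block, which pairs both cell classes of each library.

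Against other capillary cells, the 5 genes higher and 3 lower became 3 and 1 with DESeq2, 16 and 7 without TMM, 3 and 9 without a filter, 0 and 0 without the library block (68 at an unadjusted p under 0.05), 66 and 64 against all other blood EC, 3 and 1 with a gate of 3 UMIs, and 90 and 63 without the minimum for Gpihbp1. The count higher alone moved to 15 at a mean of 200 CPM, 8 without arterial-rule and venous-rule cells, 1 with thinned cells and 2 without cells of other-lineage UMIs. Leaving out a library gave 0 to 15 higher and 0 to 12 lower, the 0 without the control. The interaction gave 3 genes at a mean of 200 CPM and 1 without TMM.

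Between genotypes, the 30 genes higher and 18 lower became 181 and 101 without counting intervals, 7 and 7 with edgeR (lone control assumed to vary like the other libraries), 15 and 7 with thinned cells, 14 and 9 with a gate of 3 UMIs, and 72 and 36 without the minimum for Gpihbp1. At 1.5-fold 30 were lower. With 1 EC-iCOUP_OE library left out, 174 to 177 were higher and 44 to 136 lower. Madcam1 (mean log2 ratio with 0.5 UMI added) turned higher, to 3.13 without arterial-rule and venous-rule cells, 3.23 without cells of other-lineage UMIs and 3.11 without venous-rule cells, the 2 control cells that held most of its UMIs being left out. It moved to -2.57 with a gate of 3 UMIs and to 1.09 with thinned cells, from -0.45. Without cells of other-lineage UMIs Glycam1 (-3.65 against -9.16) and Lrg1 (-0.72 against -3.76) were not called.

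The share of blood EC moved to 1.17%, 0.194% and 0.311% (control, replicate 1, replicate 2) with a gate of 3 UMIs, to 4.05%, 2.24% and 2.28% without the minimum for Gpihbp1, and to 1.51%, 0.0684% and 0.143% with thinned cells. Where no construction is named, the cause was not tested.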
